A study of Sus scrofa with 24 samples.

Results

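Soybean oil was set against beef tallow in loin muscle (longissimus dorsi) from 12 of the 24 pigs of a feeding study. The 6 pigs whose sample titles name soybean oil were compared with the 6 whose titles name beef tallow, across all 23935 probe sets of the array other than controls. Each fat group held 3 gilts, which are young females, and 3 barrows, which are males castrated before maturity. Soybean oil was fed to gilts 3, 9 and 11 and to barrows 13, 14 and 19, and beef tallow to gilts 2, 8 and 10 and to barrows 16, 21 and 24, where the numbers are those that open the sample titles. All were crosses of Landrace, Large White and Duroc, and in both groups the fat made up 3.0% of the feed. The study held 72 such pigs in 24 pens, with 3 pigs per pen and 6 pens per fat, which entered it at about 71 kg and 130 days of age. Neither the length of feeding nor the pen that a sampled pig came from is stated in the labels. Pigs were therefore treated as independent, and the p-values below measure the spread between these 12 pigs alone. Nothing in the labels gives a diet without added fat, so each difference is between the 2 fats and does not say which of them moved a gene.

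Soybean oil is rich in linoleic acid, a polyunsaturated fatty acid, whereas beef tallow consists largely of saturated palmitic and stearic acid and monounsaturated oleic acid. Polyunsaturated fatty acids are known, mainly from rodent liver, to lower the activity of the transcription factor SREBP-1c and with it fatty acid synthase and the fatty acid desaturases. They also serve as ligands of the PPAR nuclear receptors, which switch on genes of fatty acid oxidation. In the pig, fatty acids are made mainly in adipose tissue, and a loin sample holds adipocytes between its fibres, so that lipid synthesis genes measured in it need not come from the muscle fibres.

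The arrays of the 12 pigs resembled one another closely whichever fat had been fed. Any 2 arrays correlated at 0.918 to 0.967 (Pearson, log2 signals). This range and the pair means that follow were taken over the 14361 probe sets at or above the 40th percentile of mean signal. Within a sex, pairs of pigs on the same fat had a mean correlation of 0.950 over 12 pairs, and pairs on different fats one of 0.951 over 18 pairs (p = 0.63 over 400 relabelings of fat inside the sexes, exact one-sided permutation test). The samples had the markers of their labelled tissue: all 9 measured skeletal muscle fibre markers, among them CKM, the muscle creatine kinase, and TTN, the giant sarcomere protein titin, had signals of at least 15128 in every pig. Array medians lay between 147 and 174 and did not differ detectably between the fats (exact permutation p = 0.41), nor did the 3′ to 5′ signal ratios of GAPDH (p = 0.515) and actin (p = 0.765), a measure of RNA integrity. Over all 23935 probe sets, dim ones included, pigs 11 (soybean oil) and 16 (beef tallow) resembled the remaining arrays least, with mean correlations of 0.915 and 0.918.

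No gene passed the test of a difference between soybean oil and beef tallow. Of 23935 probe sets, 0 (background share 0%) passed a Benjamini-Hochberg adjusted p of 0.05 in limma with sex as a covariate, and the smallest adjusted p was 0.144. At an unadjusted p under 0.05 there were 870 probe sets, 3.63% of those tested, with 362 higher (1.51%) and 508 lower (2.12%) in soybean oil pigs, where 5% of probe sets, about 1197, would be reached without any difference. Most of the 870 were dim: 597 of them had a mean signal under 90.7, the 40th percentile of the probe sets, and 273 lay at or above it. With the dim probe sets dropped before the fit, the same 14361 brighter ones gave 428 at that p and again 0 past the adjusted threshold. Genes are named below only from the 14361 probe sets at or above that percentile, where the smallest adjusted p was 1.00. The groups of 6 did not overlap at all for 11 probe sets higher (0.046%) and 18 lower (0.0752%) in soybean oil pigs. The plot of differences against their p shows a cloud centred near 0 in which no probe set stands clear of the rest.

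**Figure D1:**
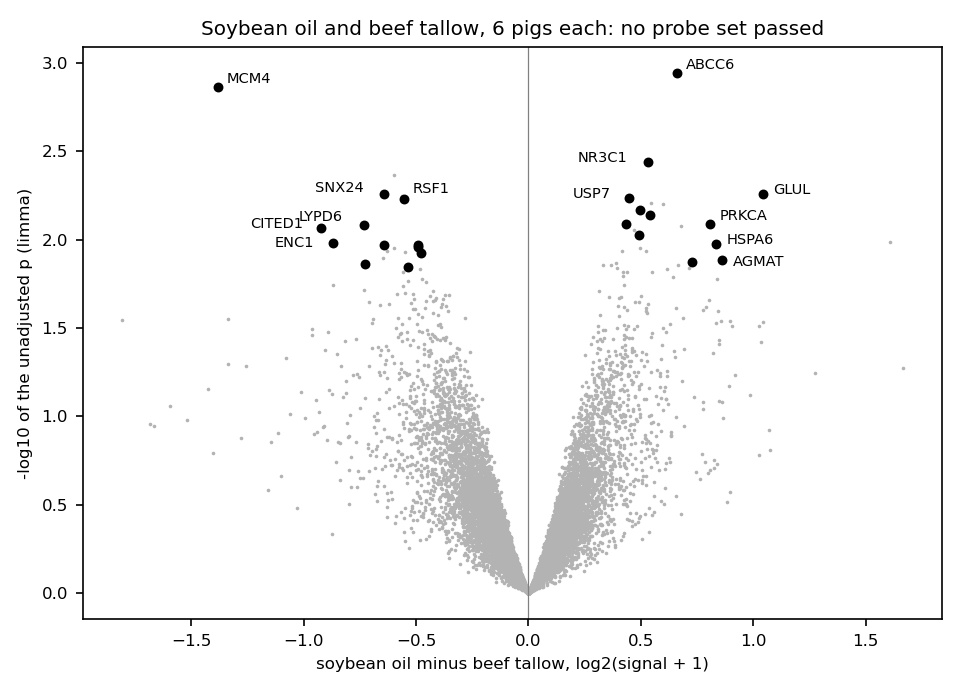
Each point is 1 of 14361 probe sets at or above the 40th percentile of signal, with the soybean oil minus beef tallow difference in log2(signal + 1) across and the -log10 of its unadjusted limma p upward. Black points are the 12 genes with the smallest p in each direction, some of them labelled; ABCC6 and MCM4 have the smallest p on their sides, and none passed the adjusted threshold.

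The size of the errors says how closely single differences were measured. Above the 40th percentile, the median standard error of a difference was 0.19 on the log2 scale, and the median 95% confidence interval reached 0.42 to either side, a factor of 1.33. For 13244 of these 14361 probe sets (92.2%) the whole interval lay within a 2-fold change in either direction. Below the percentile this held for 20.2% of probe sets, and the median interval reached 1.12 to either side. Differences past 2-fold thus lay outside the interval for most probe sets above the percentile. These intervals are for single probe sets and are not adjusted for the number tested. How large a difference would have passed the adjusted threshold was not worked out.

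The genes nearest to a difference on the higher side of soybean oil were ABCC6, NR3C1, GLUL and USP7. ABCC6 encodes a membrane transporter of the ATP-binding cassette family that in humans and mice protects soft tissue from calcification. Its signals lay between 311 and 580.0 in the soybean oil pigs (median 386) and between 179 and 341 in the beef tallow pigs (median 251). Its lowest soybean oil pig stood below the 2 highest beef tallow pigs, both of them barrows. The difference was 0.66 ± 0.15 on the log2(signal + 1) scale (SE, limma; unadjusted p = 0.00114, adjusted p = 1.00), with 0.63 in gilts and 0.69 in barrows. A second ABCC6 probe set above the percentile differed by 0.19 ± 0.22, and another, very dim one, by -0.52 ± 0.52. NR3C1, the glucocorticoid receptor, lay between 743 and 1185 in the soybean oil pigs (median 906) and between 584 and 753 in the beef tallow pigs (median 645). A single beef tallow gilt, pig 8, reached into the soybean oil range, and the difference was 0.53 ± 0.14 (unadjusted p = 0.00364). The other NR3C1 probe set above the percentile gave 0.26 ± 0.20.

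GLUL, glutamine synthetase, which forms glutamine from glutamate and ammonia in muscle, was among the brighter genes of the array. Its signals lay between 5380.2 and 13619 in the soybean oil pigs (median 11251) and between 3394 and 9713 in the beef tallow pigs (median 4571). Of the soybean oil pigs 5 were above all 6 beef tallow pigs, and the sixth, gilt 11, had 5380.2, inside the beef tallow range. The difference was 1.04 ± 0.30, about 2.06-fold (unadjusted p = 0.00554), and all 3 probe sets of the gene were positive, with 0.52 ± 0.20 for the brightest. USP7 encodes a deubiquitinase that stabilises the p53 regulator MDM2. It was the only one of the 24 genes nearest to a difference whose groups did not overlap: its signals lay between 576 and 856 in the soybean oil pigs (median 663) and between 449 and 543 in the beef tallow pigs (median 493). The difference of 0.45 ± 0.13 (unadjusted p = 0.00583) stood beside a second, brighter USP7 probe set that gave 0.0035 ± 0.19.

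The other 8 genes on this side were SOCS6, an inhibitor of cytokine and insulin signalling (0.50 ± 0.15), ALYREF, an adaptor of mRNA export (0.54 ± 0.17), PRKCA, protein kinase C alpha (0.81 ± 0.25), C14H12orf49 (0.43 ± 0.14), STAT5B, a transcription factor of growth hormone signalling (0.49 ± 0.16), HSPA6, a heat shock protein (0.84 ± 0.27), AGMAT, agmatinase (0.86 ± 0.29), and ERMP1, a metallopeptidase of the endoplasmic reticulum (0.73 ± 0.25). Their unadjusted p lay between 0.00680 and 0.0133. All 6 soybean oil pigs stood above the beef tallow mean for each of the 12 genes, and the sign was the same in gilts and in barrows, which the way of choosing them favours. For STAT5B the soybean oil pigs lay between 1032 and 1597 and the beef tallow pigs between 647 and 1099, with the ranges overlapping. PRKCA, C14H12orf49, AGMAT and ERMP1 had between 1 and 4 beef tallow pigs under the 40th percentile of signal, where array signals are least certain.

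On the lower side of soybean oil, MCM4 had the smallest p and the widest difference of the 12 genes named. MCM4 is a subunit of the helicase that unwinds DNA for replication. Its signals lay between 40.5 and 129 in the soybean oil pigs (median 66.9) and between 98.6 and 254 in the beef tallow pigs (median 203), a difference of -1.38 ± 0.33 or 2.60-fold lower (unadjusted p = 0.00136, adjusted p = 1.00). Of the soybean oil pigs 4 were under the 40th percentile, and the gene's second, dimmer probe set ran the other way, at 0.56 ± 0.41. CITED1, a transcriptional coactivator, lay between 83.5 and 176 in the soybean oil pigs (median 92.9) and between 125 and 343 in the beef tallow pigs (median 182), a difference of -0.92 ± 0.29. Its 5 lower soybean oil pigs were under every beef tallow pig, while gilt 3 had 176. COL5A1, a chain of fibrillar collagen V, lay between 559 and 837 in the soybean oil pigs (median 719) and between 832 and 1298 in the beef tallow pigs (median 932). It differed by -0.49 ± 0.16, and the 2 other COL5A1 probe sets above the percentile gave -0.39 ± 0.20 and -0.12 ± 0.20. RPL17, a protein of the large ribosomal subunit, differed by -0.48 ± 0.16 on a probe set of moderate signal, against -0.12 ± 0.14 on a far brighter one, 29319.8 on average.

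The remaining 8 on this side were SNX24, a sorting nexin (-0.64 ± 0.19), RSF1, a chromatin remodelling factor (-0.55 ± 0.16), LYPD6, a membrane protein of the Ly6 family (-0.73 ± 0.23), ENC1, an actin-binding kelch protein (-0.87 ± 0.28), SRPX2, a secreted protein (-0.49 ± 0.16), MFSD9, a putative transporter (-0.64 ± 0.21), ZNF577, a zinc finger protein (-0.73 ± 0.25), and TRIM44, of the tripartite motif family (-0.54 ± 0.18). Their unadjusted p lay between 0.00554 and 0.0144. Of the 12 genes on the lower side, 7 had pigs under the 40th percentile and 4 had a further probe set of the opposite sign. In 8 of the 12, all 6 soybean oil pigs lay below the beef tallow mean. The plot of 8 of these genes by pig shows how far single animals bridge the groups.

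**Figure D2:**
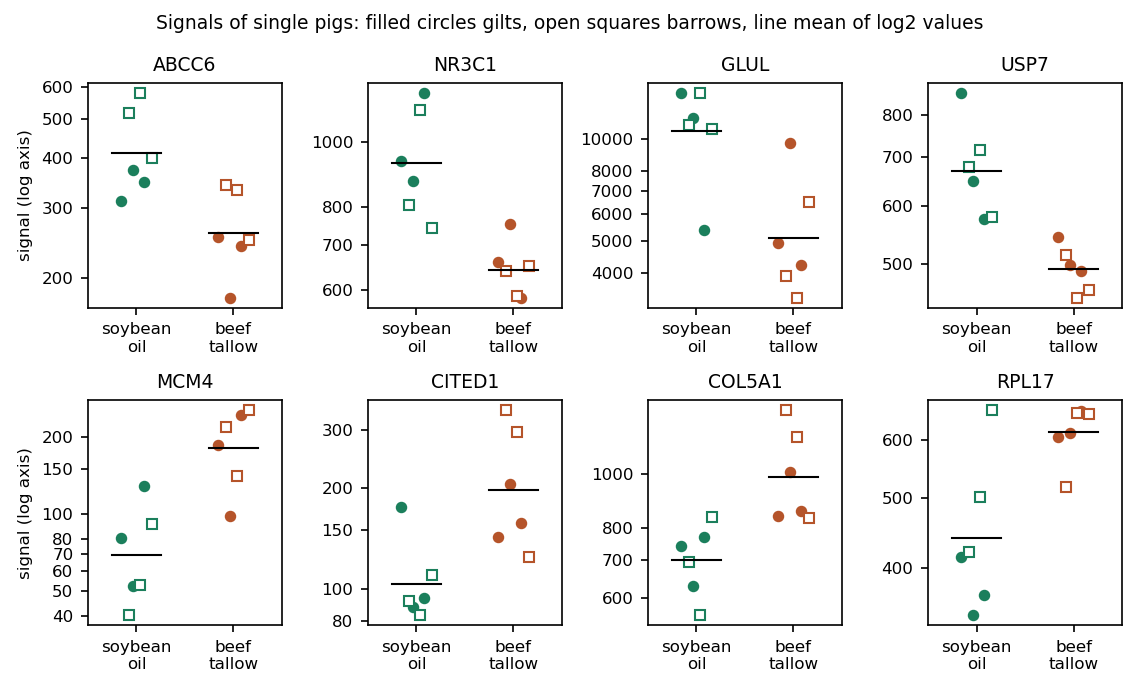
Signals of single pigs for 4 genes of the higher and 4 of the lower side, on log axes that do not start at 0, with soybean oil left and beef tallow right (filled circles gilts, open squares barrows, lines the means of the log2 values of 6 pigs). The groups are separate for USP7 and overlap for the others, by 1 pig in NR3C1.

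Separate groups of 6 did not mean wide differences. Over all 23935 probe sets, groups of 6 did not overlap for 0.046% on the higher and 0.0752% on the lower side of soybean oil. Above the 40th percentile this held for 9 of 14361 probe sets. How many would separate in random groups of 6 was not tested. Among the 7220 probe sets above the percentile with 1 symbol, 5 named genes had no overlap, chosen here after their values were seen. These were USP7, SLMAP, a sarcolemma-associated protein (0.31 ± 0.12), and AAGAB, a protein of vesicle transport (0.31 ± 0.13), on the higher side. COPZ1, a subunit of the COPI vesicle coat (-0.21 ± 0.11), and PHF6, a chromatin protein (-0.26 ± 0.11), were on the lower side. COPZ1 lay between 912 and 1054 in soybean oil pigs and between 1098 and 1297 in beef tallow pigs, so that the nearest animals of the 2 groups were only a few percent apart.

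The other 12 pigs of the study, on coconut and olive oil, did not enter the fit and show where the 24 genes stood on the remaining fats. Over the 4 fats, the mean of the beef tallow pigs was outermost in 22 of the 24, and that of the soybean oil pigs in 15. For GLUL the means of log2(signal + 1) were 13.36 on soybean oil, 13.62 on coconut oil, 13.30 on olive oil and 12.31 on beef tallow. NR3C1 stood at 9.86, 9.86, 9.75 and 9.33 in the same order. CITED1 had 6.71, 6.35, 6.63 and 7.63. These means pool gilts and barrows, and the spread between the sexes on olive oil was not tested. In gilts, olive oil and beef tallow lay near each other, at 12.73 and 12.52 for GLUL, 9.23 and 9.37 for NR3C1 and 7.24 and 7.39 for CITED1. In barrows the same pairs were 13.88 and 12.11, 10.26 and 9.29, and 6.01 and 7.87. ERMP1 had 6.94 on soybean oil against 5.99, 5.93 and 6.21. The genes had been chosen for a wide gap between soybean oil and beef tallow, so these places are a description and were not tested.

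Genes of fatty acid synthesis and desaturation gave no call in either direction, and their signals scattered widely between pigs. Of 16 genes in the list 11 were measured and 8 lay above the 40th percentile, of which 7 had a negative difference. Their median was -0.24, against -0.012 over all 14361 probe sets, and none had an unadjusted p under 0.05. SCD, the stearoyl-CoA desaturase that forms oleic acid, lay between 261 and 7435 in the soybean oil pigs (median 789.6) and between 308 and 21572 in the beef tallow pigs (median 1702). Its difference was -1.10 ± 0.84 with a 95% interval of -2.95 to 0.75, which spans both directions. FASN, fatty acid synthase, lay between 265 and 4439 in the soybean oil pigs (median 603) and between 349 and 8929 in the beef tallow pigs (median 1389.7), a difference of -0.79 ± 0.65. ELOVL6, which elongates palmitic acid, differed by -0.51 ± 0.57, and FADS1, the delta-5 desaturase that acts on products of linoleic acid, by -0.31 ± 0.21. The remaining members above the percentile were ME1, malic enzyme (-0.16), ACSS2, acetyl-CoA synthetase (0.041), ELOVL1 (-0.12) and SCD5 (-0.18). FADS2, the delta-6 desaturase that takes linoleic acid as its substrate, ACACA, acetyl-CoA carboxylase, and SREBF1, the gene of SREBP-1c, were measured only under the percentile, at -0.070 ± 0.68, -0.50 ± 0.47 and -0.10 ± 0.33.

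The values of gilts and barrows stood on different sides. In gilts 7 of the 8 genes were positive with a median of 0.085, and in barrows none was, with a median of -0.60 (-0.47 with 1 of 8 positive after median centring, -0.55 after quantile normalization). SCD had 479.6, 1022 and 557 in soybean oil gilts and 308, 1024 and 678 in beef tallow gilts, which interleave. In barrows it had 261, 1619 and 7435 on soybean oil and 2380.2, 21572 and 7590.2 on beef tallow. The barrows of both fats spread far more than the gilts, and their ranges overlapped. SCD differed by 0.12 ± 1.13 in gilts and by -2.32 ± 1.13 in barrows (unadjusted p = 0.0668), and FASN by 0.085 ± 0.89 and -1.66 ± 0.89. The size turned on single animals: the SCD difference in barrows was -1.07 without pig 13 and -3.49 without pig 19, and that of FASN -0.50 and -2.53 without the same pigs. The test of the difference between the sexes passed for none of them (SCD -2.43 ± 1.59, adjusted p = 0.904).

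FADS1 was the member with separate groups of barrows. Soybean oil barrows had 96.4, 68.7 and 94.9 and beef tallow barrows 171, 169 and 127, a difference of -0.84 ± 0.21 (unadjusted p = 0.00261, adjusted p = 0.809). In gilts it had 95.9, 107 and 97.5 on soybean oil and 79.0, 101 and 78.0 on beef tallow, a difference of 0.22 ± 0.21. Groups of 3 barrows that do not overlap are common on this array: they were found for 7.68% of all probe sets on the lower side of soybean oil and 3.33% on the higher. FADS1 was dim, with signals from 68.7 upward around the 40th percentile of 90.7.

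**Figure D3:**
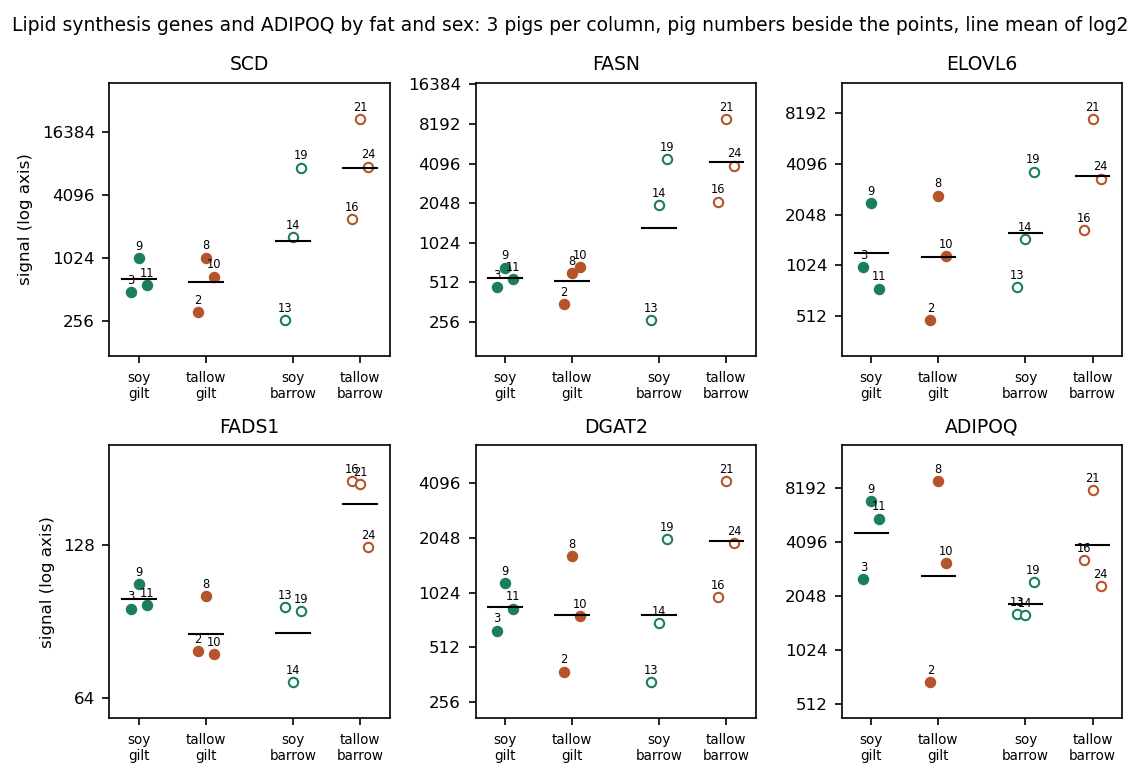
Signals by fat and sex for 4 genes of fatty acid synthesis, the triglyceride enzyme DGAT2 and the adipocyte hormone gene ADIPOQ, on log axes that do not start at 0, with 3 numbered pigs per column, soybean oil left of beef tallow within each sex, gilts filled, barrows open, and lines at the mean of the log2 values. Barrows 13 and 21 lie at the opposite ends of SCD, FASN, DGAT2 and ELOVL6 among barrows, and FADS1 alone separates the barrows of the 2 fats.

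Adipocyte markers had values on the same sides as these genes. All 11 measured adipocyte markers lay above the percentile, and 9 of 11 were negative with a median of -0.062 over both sexes (-0.16 without pigs 11 and 16), 0.21 in gilts (9 of 11 positive) and -0.45 in barrows (2 of 11 positive). None had an unadjusted p under 0.05 in either sex. Their summed signal was 32202 to 42186 in soybean oil gilts and 17018 to 54753 in beef tallow gilts, and 22687 to 29830.0 in soybean oil barrows and 28218 to 43539.7 in beef tallow barrows. ADIPOQ, the gene of the adipocyte hormone adiponectin, had 1627, 1602 and 2448 in soybean oil barrows and 3252, 8017 and 2335 in beef tallow barrows. It differed by 0.79 ± 0.83 in gilts and by -1.08 ± 0.83 in barrows. No marker was near 0 in every pig: the lowest single signal was 24.2. In RNA from whole muscle, fewer adipocytes and less RNA per adipocyte cannot be told apart, and the part of adipocyte content in the lipid synthesis values was not tested.

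Triglyceride and cholesterol genes had medians close to 0. Of 12 triglyceride genes above the percentile 6 were positive and 6 negative, with a median of -0.013 and none with an unadjusted p under 0.05. DGAT2, which adds the last fatty acid to triglyceride, differed by -0.61 ± 0.55 with 0.13 in gilts and -1.35 in barrows. Without pig 13 the DGAT2 difference was -0.25 over both sexes and -0.74 in barrows, and without pig 19 it was -2.04 in barrows. Its relative DGAT1 differed by -0.32 ± 0.21. PNPLA2, the lipase that starts triglyceride breakdown, stood at 0.00049 ± 0.19, and the lipid droplet coat protein PLIN2 at -0.026 ± 0.24. Cholesterol synthesis split evenly, 7 positive and 7 negative of 14 with a median of 0.00052, and the intervals of all 14 lay within 2-fold. NSDHL, a sterol dehydrogenase, was nearest to a difference there at -0.34 ± 0.16 (unadjusted p = 0.0546). INSIG1, which holds SREBP proteins in the endoplasmic reticulum, differed by -0.21 ± 0.25 and SCAP, which escorts them out of it, by 0.18 ± 0.12.

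Oxidation of fatty acids, the process that PPAR receptors control, gave no call and mostly narrow intervals. Of 22 genes above the percentile 11 were positive and 11 negative, with a median of -0.0054 and none with an unadjusted p under 0.05. The interval lay within 2-fold for 21 of the 22. CPT1B, which admits fatty acids to muscle mitochondria, lay between 1189 and 3858 in the soybean oil pigs (median 2454) and between 1024 and 3362 in the beef tallow pigs (median 2149) and differed by 0.16 ± 0.28. PDK4, the kinase that turns muscle from glucose to fat and a known PPAR target, lay between 14949 and 35622 in the soybean oil pigs (median 26089) and between 20431 and 37008 in the beef tallow pigs (median 26407). The fats interleaved fully there, and the difference was -0.075 ± 0.21 with a 95% interval of -0.54 to 0.39. Other PPAR targets also lay near 0: UCP3 differed by 0.15 ± 0.30, ANGPTL4 by -0.15 ± 0.33 and the muscle fatty acid binding protein FABP3 by 0.0022 ± 0.29. LPL, which releases fatty acids from circulating lipoproteins, stood at -0.012 ± 0.23.

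PPARGC1A was the widest of the uptake and regulator genes. It encodes PGC-1 alpha, a coactivator of mitochondrial genes, and lay between 7673 and 23129 in the soybean oil pigs (median 16119.5) and between 2699.9 and 15495 in the beef tallow pigs (median 8879.8), a difference of 0.92 ± 0.44 (unadjusted p = 0.0585). The barrows had 23129, 22141 and 9422 on soybean oil and 10430.1, 2699.9 and 5308 on beef tallow, a difference of 1.67 ± 0.56 (unadjusted p = 0.0130, adjusted p = 0.903). Gilts gave 0.17 ± 0.56. Leaving out single barrows moved the barrow value between 1.18 (without pig 21) and 2.16 (without pig 16). PPARD, a PPAR receptor of muscle, differed by 0.12 ± 0.46, and PPARG, the receptor of adipocytes, by -0.062 ± 0.44. PPARA was measured only under the percentile.

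Energy metabolism and fibre genes mostly had narrow intervals around 0. The 33 oxidative phosphorylation genes had a median of -0.048 with 12 positive, and the interval lay within 2-fold for 32 of them, COX7A1 being the exception. All 24 genes of the tricarboxylic acid cycle (-0.0022, 11 positive) and all 18 of glycolysis and glycogen (0.00056, 9 positive) had intervals within 2-fold. Among them UGP2, which makes the glucose donor of glycogen, was nearest to a difference at 0.36 ± 0.17 (unadjusted p = 0.0542). Intervals lay within 2-fold for 9 of the 10 slow fibre genes, CASQ2 being the exception, and for all 10 fast fibre genes. The slow fibre genes had a median of -0.083 and the fast fibre genes one of -0.019. The latter was 0.015 after median centring and 0.048 after quantile normalization. The near-zero medians of fatty acid oxidation (0.029), triglyceride (0.021) and tricarboxylic acid cycle genes (0.032) likewise took the other sign after median centring, as did those of heat shock (0.0099), growth signalling (0.016) and muscle fibre genes (0.0092). MYH7, the slow myosin heavy chain, lay between 28599 and 51992 in the soybean oil pigs (median 36057) and between 29241 and 47601 in the beef tallow pigs (median 40550.0) and differed by -0.11 ± 0.17. Its 95% interval ran from -0.49 to 0.27.

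Inflammation and eicosanoid genes, often studied because linoleic acid is a precursor of eicosanoids, gave no call above the percentile. Of 15 Toll-like receptor and NF-kB genes above the percentile 10 were positive, with a median of 0.14 (0.056 without pigs 11 and 16) and none with an unadjusted p under 0.05. CXCL2, a neutrophil chemokine, differed by 0.63 ± 0.38, ICAM1, a leukocyte adhesion receptor, by 0.37 ± 0.25, and TLR2, a receptor of bacterial lipoproteins, by 0.52 ± 0.35. CXCL2 lay between 376 and 1830.3 in the soybean oil pigs (median 986) and between 256 and 1346 in the beef tallow pigs (median 449.9). Soybean oil gilts had 1830.3, 1422 and 1385 and beef tallow gilts 256, 1170.0 and 1346, without overlap, a difference of 1.05 ± 0.53, against 0.21 ± 0.53 in barrows. Without pig 2, the lowest of the gilts, the difference over both sexes was 0.25. The 8 eicosanoid genes had a median of -0.058. PTGDS, a prostaglandin D2 synthase, was the widest at -0.65 ± 0.48 (-0.30 without pig 21), and the epoxide hydrolase EPHX2, which acts on epoxides of linoleic acid, gave -0.33 ± 0.25 (-0.076 without pigs 11 and 16). PTGS2, the inducible cyclooxygenase, and the cytokine IL6 were measured only under the percentile, at -0.18 ± 0.21 and 0.38 ± 0.39. ALOX15, the lipoxygenase that oxidises linoleic and arachidonic acid, differed by -1.85 ± 0.46 (unadjusted p = 0.00202), but with a mean signal of 20.4 it was among the dimmest probe sets of the list.

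Of the stress lists, 22 oxidative stress genes had a median of 0.024. GSR, glutathione reductase, was the 1 member above the percentile with an unadjusted p under 0.05, at 0.43 ± 0.18 (unadjusted p = 0.0354). It differed by 0.77 ± 0.22 in barrows and by 0.095 ± 0.22 in gilts, and the difference between the sexes did not pass (limma, adjusted p = 0.904). Its signals lay between 300.4 and 403 in the soybean oil pigs (median 362) and between 179 and 333 in the beef tallow pigs (median 299). The 23 heat shock and chaperone genes had a median of -0.024 and the 19 interferon genes one of -0.12, where PSMB8, an inducible proteasome subunit, gave 0.42 ± 0.19 (unadjusted p = 0.0468). Growth signalling genes had a median of -0.019, atrophy genes 0.00042 and clock genes 0.016. STAT5B, already named, was the 1 growth gene of 11 with an unadjusted p under 0.05. IGF2, a growth factor, differed by -0.38 ± 0.18 on its brightest probe set, while 4 of the 13 IGF2 probe sets ran the other way. Immediate early genes, which respond within minutes when a cell is stimulated, gave 12 of 15 positive and a median of 0.16 (0.38 without pigs 11 and 16). NR4A3, a nuclear receptor of this class, was the only member with an unadjusted p under 0.05, at 1.04 ± 0.44 on its brighter probe set. Over all these lists no member passed the adjusted threshold.

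**Figure D4:**
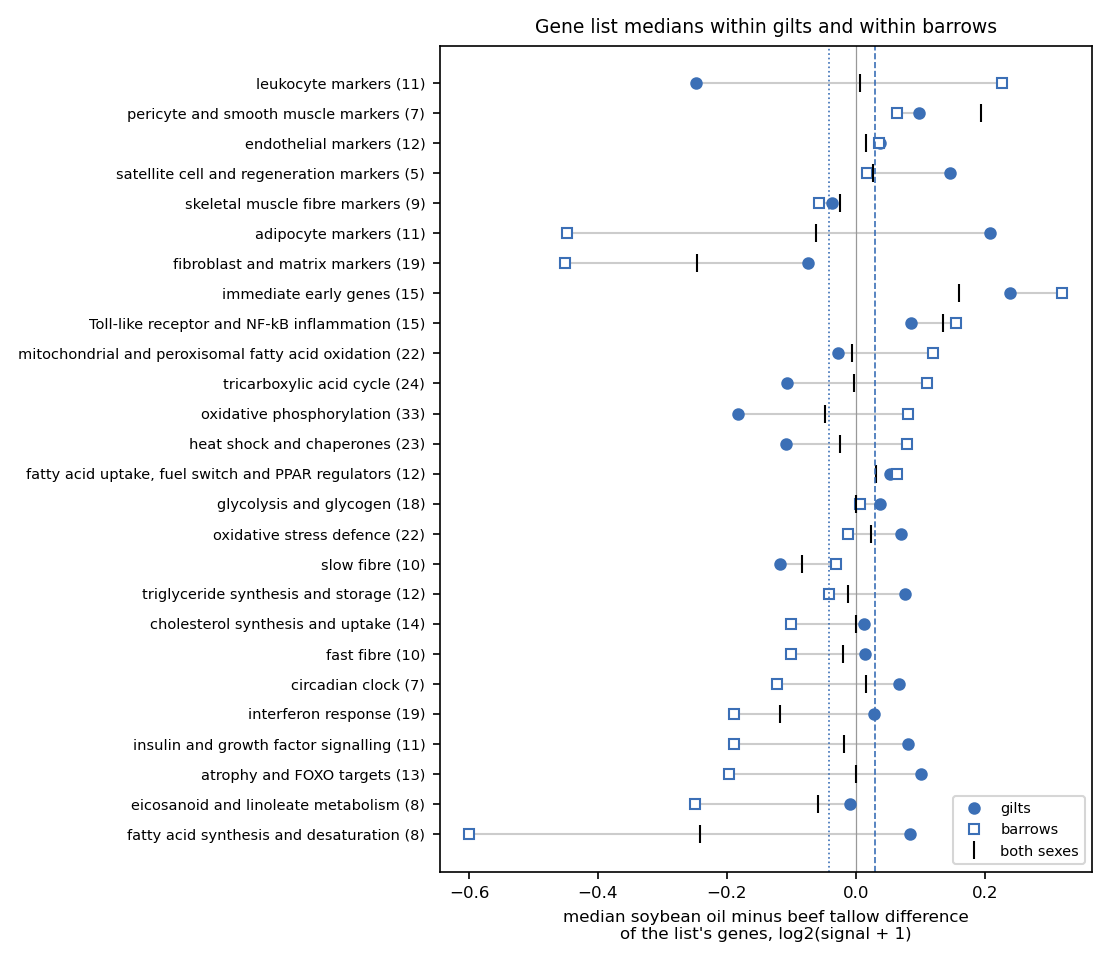
Median soybean oil minus beef tallow difference of each gene list with 5 or more genes above the 40th percentile of signal, in log2(signal + 1), with the number of genes in brackets, gilts as filled circles, barrows as open squares, both sexes as black bars and lines at the medians over 14361 probe sets in gilts (0.029, dashed) and in barrows (-0.042, dotted). Fatty acid synthesis, adipocyte and matrix lists lie farthest left in barrows.

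Connective tissue markers had a median on the lower side of soybean oil. Of 19 fibroblast and matrix genes, all above the percentile, 15 were negative, with a median of -0.25 (-0.074 in gilts, -0.45 in barrows). On the brightest probe set of each gene, COL5A2, a collagen V chain, was the only member with an unadjusted p under 0.05 over both sexes. COL5A1, named above on a dimmer probe set (limma, unadjusted p = 0.0110), had 0.0806 on its brightest. COL5A2 lay between 83.3 and 313 in the soybean oil pigs (median 178) and between 226 and 424 in the beef tallow pigs (median 265) and differed by -0.66 ± 0.29 (unadjusted p = 0.0420). FN1, fibronectin, differed by -0.41 ± 0.21 and DCN, the collagen-binding proteoglycan decorin, by -0.35 ± 0.20. COL1A2, a chain of collagen I, had 1051, 807 and 1315 in soybean oil barrows and 9662, 4788 and 1134 in beef tallow barrows, where pig 24 lay within the soybean oil range. The summed signal of the list was 91028 to 118931 in soybean oil pigs and 90464 to 167514 in beef tallow pigs, ranges that overlap. COMP, a cartilage and tendon matrix protein and the only tendon marker measured, had 59.5, 75.2 and 679 in soybean oil barrows and 2198, 2603 and 216 in beef tallow barrows, so that pigs 16 and 21 stood far above all others. It differed by -1.52 ± 0.86 over both sexes. How much connective or tendon tissue each sample held was not tested.

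Other cell types gave small medians. All 7 pericyte and smooth muscle genes were positive (0.19), although none had an unadjusted p under 0.05 and their sum ran over 42898 to 55216 in soybean oil pigs and 32091 to 54138 in beef tallow pigs. The 12 endothelial genes had a median of 0.015 and the 11 leukocyte genes one of 0.0057. Leukocyte genes had opposite signs in the sexes, with 2 of 11 positive in gilts (-0.25) and 11 of 11 in barrows (0.23), yet none had an unadjusted p under 0.05 in either. Satellite cell genes (0.026, 5 genes) and muscle fibre genes (-0.025, 9 genes) lay near 0, and the 3 erythrocyte genes had a median of -0.17. The nerve list held 2 genes above the percentile, with a median of -0.20.

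Within gilts, 3 against 3, no gene passed either. Of 23935 probe sets 0 (0%) passed the adjusted threshold in limma on the 4 means of fat and sex, and 874 (3.65%) had an unadjusted p under 0.05, 521 of them higher (2.18%) and 353 lower (1.47%) with soybean oil. Non-overlapping groups of 3 gilts were found for 4.85% of probe sets on the higher and 3.2% on the lower side. DMD, the gene of dystrophin, which links the fibre's cytoskeleton to its membrane, was the first of the 5 named genes with the smallest p. It had 609, 518 and 592 in soybean oil gilts and 298, 254 and 336 in beef tallow gilts, without overlap, a difference of 0.96 ± 0.23 (unadjusted p = 0.00210, adjusted p = 0.921). In barrows the DMD difference was 0.11 ± 0.23. TTC39C (-1.16 ± 0.32), TAF10, a subunit of the general transcription factor TFIID (-0.73 ± 0.20), RPL17 (-0.74 ± 0.21) and CCDC94 (1.13 ± 0.32) followed. Under the 40th percentile of signal, TTC39C had 2 soybean oil pigs and 1 beef tallow pig, and CCDC94 had 2 beef tallow pigs. TAF10, well above the dim range, had 1353, 1048 and 938 in soybean oil gilts and 1672, 2162 and 1694 in beef tallow gilts. In barrows it stood on the other side, at 0.33 ± 0.20. Of the 33 oxidative phosphorylation genes 4 were positive in gilts, with a median of -0.18 as deposited, against 0.029 over all 14361 probe sets. None had an unadjusted p under 0.05. The gilt median was -0.24 after median centring and -0.089 after quantile normalization. In barrows 23 of the 33 were positive as deposited, with a median of 0.081 against -0.042. After median centring 31 were positive (0.21) and after quantile normalization 19 (0.031). Median centring also moved the medians over the 14361 probe sets, to -0.029 in gilts and 0.085 in barrows.

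Barrows had the larger number of small p-values, and again no call. In barrows 0 of 23935 probe sets (0%) passed the adjusted threshold, the smallest adjusted p being 0.135, and 1279 (5.34%) had an unadjusted p under 0.05, with 322 higher (1.35%) and 957 lower (4%). That direction depended on how the arrays were scaled. The arrays of soybean oil barrows had a mean log2 median of 7.26 and those of beef tallow barrows one of 7.39, whereas in gilts soybean oil stood at 7.36 and beef tallow at 7.30. Among probe sets with an unadjusted p under 0.05, 74.8% were lower in soybean oil barrows as deposited, 45.9% after centring each array on its median and 51.1% after quantile normalization. Centring shifted every barrow difference by 0.13, and the values here are as deposited.

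ITGA5, the fibronectin-binding integrin alpha 5, had the smallest p among named genes in barrows. It had 68.1, 57.5 and 59.0 in soybean oil barrows and 141, 148 and 158 in beef tallow barrows, well apart, a difference of -1.26 ± 0.29 (unadjusted p = 0.00140, adjusted p = 0.761). All 3 soybean oil barrows were under the 40th percentile of signal, and a brighter ITGA5 probe set differed by -0.079 in barrows. FKBP10, a chaperone of collagen folding, had 219, 249 and 384 in soybean oil barrows and 1013, 669 and 444 in beef tallow barrows, a difference of -1.28 ± 0.31, which was -0.98 without pig 16. Of the 19 matrix genes 4 had an unadjusted p under 0.05 in barrows, all lower with soybean oil (4% of all probe sets in barrows), and 2 of 19 were positive as deposited, 4 of 19 after median centring. The summed matrix signal was 91028 to 118931 in soybean oil barrows and 113609 to 167514 in beef tallow barrows, so FKBP10 lay on the same side as that list.

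On the higher side in barrows stood ATF3 and NR4A3, both immediate early transcription factors. ATF3 had 4395, 8180.3 and 5163 in soybean oil barrows and 1999.6, 702 and 2276 in beef tallow barrows, a difference of 1.95 ± 0.46 (unadjusted p = 0.00179, adjusted p = 0.761). The lowest of the beef tallow barrows was pig 21, and without it the difference was 1.42. In gilts ATF3 had 3173, 3455 and 3474 on soybean oil and 3325, 6461 and 2837 on beef tallow, which overlap, a difference of -0.23 ± 0.46. NR4A3 had 3942, 6102 and 2607 in soybean oil barrows and 1119, 1291 and 1269 in beef tallow barrows on its brighter probe set, and its 2 probe sets differed by 1.70 ± 0.58 and 1.57 ± 0.37 in barrows. Of the 15 immediate early genes 4 had an unadjusted p under 0.05 in barrows, all of them higher with soybean oil (over all probe sets 5.34% had that p in barrows, 1.35% on the higher side): ATF3, NR4A3, IER5 (0.70 ± 0.25) and MYC (0.65 ± 0.26). EGR1, another early gene, stood at -0.43 ± 0.58, and FOS at 0.45 ± 0.71, so the members of the class differed among themselves. GLUL differed by 1.40 ± 0.42 in barrows and by 0.69 ± 0.42 in gilts.

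**Figure D5:**
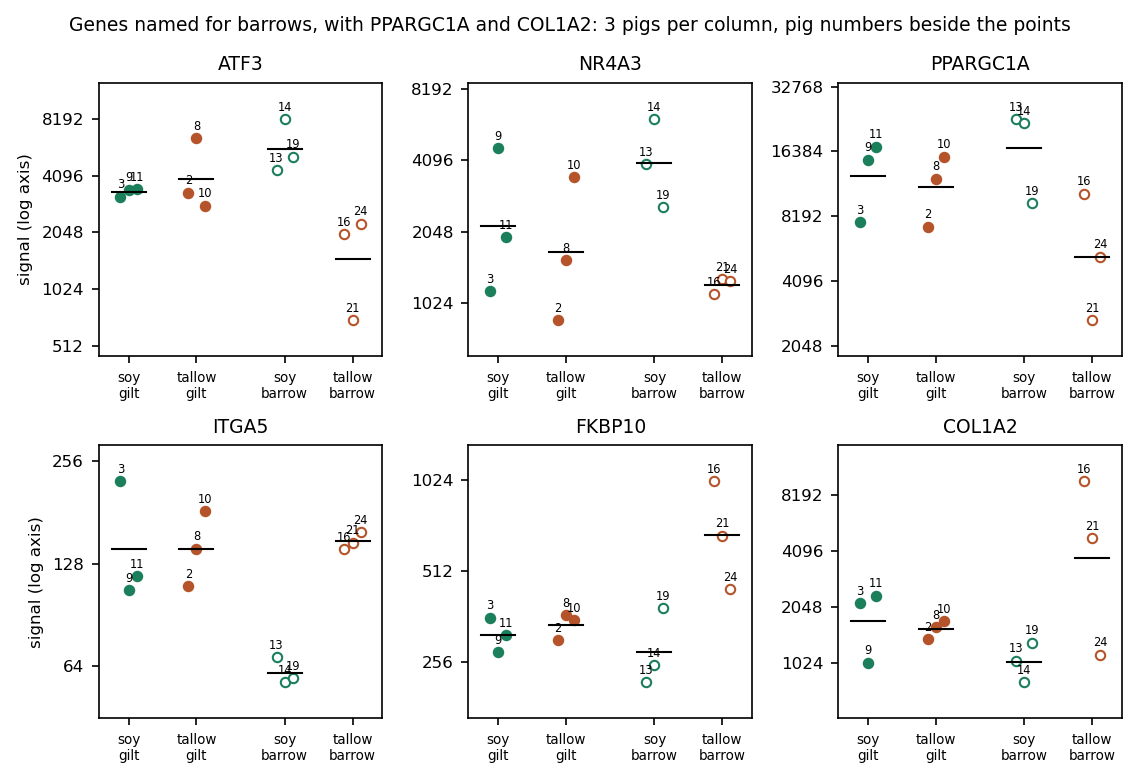
Signals by fat and sex for ATF3, NR4A3 (its brighter probe set), PPARGC1A, ITGA5, FKBP10 and COL1A2, on log axes that do not start at 0, with 3 numbered pigs per column, soybean oil left of beef tallow within each sex, gilts filled, barrows open, and lines at the mean of the log2 values. Barrows of the 2 fats are separate for ATF3, NR4A3, ITGA5 and FKBP10, gilts of the 2 fats overlap in every panel, and barrows overlap for COL1A2 and PPARGC1A.

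Whether the fats acted differently in the 2 sexes was tested directly, and no gene passed. Of 23935 probe sets 0 (0%) passed for the barrow minus gilt difference of the soybean oil minus beef tallow value, with a smallest adjusted p of 0.309, and 1213 (5.07%) had an unadjusted p under 0.05, 302 positive (1.26%) and 911 negative (3.81%). Across the 14361 probe sets above the percentile, the differences in gilts and in barrows, which rest on different pigs, had a Pearson correlation of -0.11 and a Spearman correlation of -0.14, given as a description since genes are not independent. Of these probe sets 275 had an unadjusted p under 0.05 in gilts, 554 in barrows and 18 in both, and 2 of the 18 had the same sign. Over all 14361 the sign was the same for 6401 (44.6%). These values are as deposited, where the soybean oil minus beef tallow difference of array medians was 0.059 in gilts and -0.13 in barrows. The counts were not repeated after centring. FAM84A had the smallest p of the named genes, with 261, 122 and 166 in soybean oil gilts against 87.3, 70.8 and 110.2 in beef tallow gilts, and 101, 78.3 and 72.5 in soybean oil barrows and 137, 184 and 186 in beef tallow barrows. Of these pigs 2 on soybean oil and 2 on beef tallow were under the 40th percentile of signal. Both sexes were free of overlap, in opposite directions (0.98 ± 0.30 in gilts, -1.01 ± 0.30 in barrows, difference -1.98 ± 0.42, adjusted p = 0.728). PIK3IP1, an inhibitor of PI3 kinase, showed the same pattern at 0.66 ± 0.23 and -0.62 ± 0.23. Over all 23935 probe sets, as deposited, opposite separation of the fats in the 2 sexes occurred in 138 (0.577%) and the same separation in 80 (0.334%). LRTM2, HEBP2 and TAF10 completed the 5, with barrow minus gilt values of -1.66 ± 0.45, -1.25 ± 0.35 and 1.06 ± 0.29. LRTM2 had 1 pig of each fat under the 40th percentile, and HEBP2 had 1 soybean oil pig there. Negative shares among the small p-values again depended on scaling: 75.1% were negative as deposited, 44.4% after median centring and 50.8% after quantile normalization.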

How the data were processed

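Total RNA of 24 pigs was hybridised to a 1-colour Affymetrix porcine array, 1 array per pig, and 12 arrays were used for the comparison. The authors deposited probe set signals in linear intensity units in a single table. How probes were summarised is not stated in the labels. Every array had a 2% trimmed mean of 500.1 to 500.2 but its own median, so the arrays share a scale and not a distribution. The 124 AFFX and 64 RPTR control probe sets were left out of the 24123, and signals became log2(signal + 1). The added 1 shrinks fold changes of the very dimmest signals, yet differences of dim probe sets scattered most. Of the 865 probe sets whose soybean oil minus beef tallow difference was over 1 in either direction, 835 lay below the 40th percentile.

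The test was limma's moderated one (version 3.58.1, lmFit then eBayes, R 4.3.3), two-sided, with Benjamini-Hochberg adjustment over all 23935 probe sets and a threshold of 0.05. Fat plus sex was fitted to the 12 arrays for the main comparison, and 4 means of fat and sex for gilts, barrows and their difference. Array measures were compared by exact permutation within sex (400 relabelings). The fits were tested on simulated data.

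Of the probe sets, 10069 had 1 gene symbol in the platform annotation, 198 several and 13668 none, and 9961 of the first had a gene identifier in RefSeq. Genes were named only from probe sets with 1 symbol at or above the 40th percentile of mean signal. Named were the 12 smallest p in each direction, since none passed, the 5 smallest p in gilts, in barrows and for their difference, the 3 smallest p of each of 19 pathway lists, and 31 genes of lipid, muscle and inflammation biology where measured, of which 22 lay above the percentile. For lists the brightest probe set of a gene was used. There were also 10 lists of cell type markers. ACACA, FADS2, SREBF1, PPARA, PTGS2 and IL6 of these 31 lay under the percentile. The members and lists were chosen with earlier results of these data known, and list counts and medians are descriptions.

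Alternatives were filters at the 40th and 60th percentiles, quantile normalization, median centring, a pseudocount of 16, all 24 arrays, trended and robust variance, array weights, no sex term, 1 probe set per gene, leaving out pigs 11 and 16, and leaving out each pig. Precision is limited by the number of arrays.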

Additional observations from a re-analysis of the deposited data

Results flagged for a closer look

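Of 224 groups of 6 pigs examined (108 named probe sets and 4 array measures, each in both fats), 11 held an animal whose distance from its nearest neighbour was large beside the range of its group (Dixon's test at the 95% level). Chance flags about 1 in 20 groups, so as many or more could arise with no cause. Pig 11, a soybean oil gilt, had a GLUL signal of 5380.2 where the other 5 soybean oil pigs lay between 10646 and 13619, and the GLUL difference was 1.26 without it. In CITED1, gilt 3 had 176 against 83.5 to 109.8 in the other soybean oil pigs. FADS1 stood at 68.7 in soybean oil barrow 14 and between 94.9 and 107 in the others of its fat. ANGPTL4, which encodes an inhibitor of lipoprotein lipase, was low in soybean oil barrow 19, at 181 against 637 to 1086.

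Among beef tallow pigs, gilt 8 was high in ENC1 (186 against 120.3 to 141) and in the slow tropomyosin gene TPM3 (2799 against 2047 to 2169). Barrow 21 was high in PTGDS (1772 against 394 to 630.4). Barrow 16 was low in RPL17 (517 against 607 to 658). The same barrow had the highest GAPDH 3′ to 5′ log2 ratio of its fat, 0.32 against 0.094 to 0.17, and the lowest mean correlation with the other arrays, 0.918 against 0.928 to 0.932. Gilt 11 had the lowest mean correlation among soybean oil pigs, 0.915 against 0.928 to 0.934. The mean correlations of both pigs were taken over all 23935 probe sets, dim ones included. No difference between the sexes in the soybean oil minus beef tallow value passed its own test, so none is given here. Gilts and barrows themselves were not compared.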

How the results depend on the processing

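No paired analysis was possible because the numbers in the labels run through all pigs and are not shared between the fats. The count past the threshold for soybean oil against beef tallow stayed at 0 under all 12 other alternatives tried, and ran from 0 to 2 when 1 pig was left out (2 without pig 13, both dim and without a symbol). In gilts it ran from 0 to 2 (1 without pig 3, 21 or 24, 2 without pig 9), in barrows from 0 to 3 (1 without pig 13, 2 without pig 9 or 19, 3 without pig 14, B2M among them) and for the difference between the sexes from 0 to 2 (2 without pig 8). The 40th percentile filter gave 1 in barrows, higher with soybean oil and without a symbol. The number at an unadjusted p under 0.05, 870 in all pigs, was 428 with that filter, 273 with a 60th percentile filter, 214 with 1 probe set per gene and 498 with all 24 arrays and the 40th percentile filter, an alternative added after seeing the data. The same 4 settings gave 436, 258, 215 and 501 in gilts, 836, 520, 388 and 840 in barrows and 778, 466, 354 and 788 for the difference between the sexes. Each of these settings tests fewer probe sets. The full fit had 273 of the 14361 probe sets above the 40th percentile at that p, against 428 with the filter, so on the same probe sets the filter raised the number. Both fits share arrays and model, and they differ in the probe sets over which limma pools the variance. The full fit includes the dim ones there, and the p of brighter genes given here come from it. How the pooling changed single p-values was not tested. Leaving out 1 pig moved these numbers between 775 and 1046 in all pigs, 787 and 1340 in gilts (1340 without pig 9), 1020 and 1723 in barrows, and 1072 and 1586 for the sexes. None of the 29 list medians moved by more than the spread between pigs. That spread, the standard deviation of list scores within a fat, was 0.52 for adipocyte markers against a median of -0.062. Leaving out single pigs took some medians across 0, among them adipocyte (-0.37 to 0.12), interferon (-0.17 to 0.048), slow fibre (-0.13 to 0.014) and oxidative phosphorylation genes (-0.11 to 0.029). Fatty acid synthesis (-0.34 to -0.18) and matrix genes (-0.35 to -0.17) stayed negative. Of the 108 named differences over both sexes, none reached an adjusted p of 0.05 under any alternative and 18 changed sign under at least 1, all of them under 0.25 in size. FAM84A was 0.019 after quantile normalization and 0.020 after median centring, TNNI2 0.0013 after quantile normalization, LPL 0.023 and PLIN2 0.0080 after median centring. FABP3 was -0.10 with array weights and -0.046 without pigs 11 and 16, and CCL2 was 0.20 without those pigs. The ranges over single pigs left out were FAM84A (-0.25 to 0.14), PIK3IP1 (-0.13 to 0.16), LRTM2 (-0.41 to 0.029), HEBP2 (-0.23 to 0.078), PDK4 (-0.17 to 0.054), FABP3 (-0.18 to 0.16), FABP4 (-0.37 to 0.049), LPL (-0.17 to 0.094), ADIPOQ (-0.69 to 0.19), CPT1B (-0.0054 to 0.31), PLIN2 (-0.21 to 0.11), UCP3 (-0.051 to 0.38), ANGPTL4 (-0.34 to 0.17), PPARG (-0.42 to 0.15), CCL2 (-0.33 to 0.13), IGF1 (-0.20 to 0.035) and PPARD (-0.15 to 0.43). The cause of these changes was not tested. None of the 23 differences followed in gilts, in barrows or for the barrow minus gilt value changed sign. Most of them had been chosen for a small p or a wide value in that same comparison, which favours a stable sign. Signals give no depth, and 3 pigs per fat and sex limit what the sex comparisons can resolve.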
